A study of Mus musculus with 5 samples.

Results

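The genes described here encode SWI/SNF subunits and other chromatin remodelling factors. They were taken by gene symbol alone: the name had to begin with Smarca, Smarcb, Smarcc, Smarcd, Chd and a digit, Ino80, Arid with a digit from 1 to 5, Actl6 or Dpf with a digit from 1 to 3, or be Brd7 or Brd9, and Smarce1 was left out. This gave 44 genes of the 18193 measured, covered by 100 probe sets, and each gene was read on whichever of its probe sets was brightest on average. Transcripts of E14 mouse embryonic stem cells, an established line grown on a layer of mouse embryo fibroblasts with serum replacement, fetal bovine serum and LIF, were measured on 5 Affymetrix arrays. A total of 2 arrays came from wild-type (WT) cells and 3 from Trip12 mut/mut cells. Trip12 encodes a HECT-type ubiquitin ligase; which mutation the cells carry, how many clones were used and whether feeders were taken off before lysis are not given in the sources used here. All values are RMA values on the log2 scale, so a difference of 1 is 2-fold, and differences are Trip12 mut/mut minus WT.

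Chromatin remodellers use ATP to slide, evict or exchange nucleosomes. SWI/SNF complexes are built around 1 of the ATPases Smarca4 (BRG1) and Smarca2 (BRM). Core subunits are shared between assemblies, though not each of them by every assembly. Other subunits set the assembly apart: Arid1a, Arid1b and Dpf proteins in BAF, Arid2 and Brd7 in PBAF, Brd9 in ncBAF. Embryonic stem cells are known for a form of BAF with Smarca4, Smarcc1 and Smarcd1 and little Smarca2 or Smarcc2, and ISWI, CHD and INO80 enzymes are separate families with their own partners.

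The array labelled Trip12 mut/mut replicate 1 (the array labelled mut/mut 1 from here on) went against its label. Trip12 itself read 10.17 and 10.25 on the WT arrays, 10.18 on that array, and 12.09 and 12.57 on replicates 2 and 3; where the probe set lies relative to the mutation is not known here, so its level checks the label only in part. Over the 44 genes the SD of the differences between that array and WT replicates 1 and 2 was 0.0702 and 0.101, against 0.114 between the WT arrays themselves and 0.296 to 0.373 for replicates 2 and 3 against WT. The results below are therefore given with and without the array labelled mut/mut 1. Leaving it out was decided with its values known, so p-values without it are too favourable. Embryonic stem cell markers were bright on every array (mean of 14 genes 11.01, 11.03, 11.01, 10.90 and 11.07, WT first). The mean held differences in both directions. On replicates 2 and 3, 7 of the 14 lay below both WT arrays and 4 above, against 17.5% and 26.7% of all genes. Without the array labelled mut/mut 1 their differences ran from -0.80 to 0.68, with a median of -0.12. The mean of 27 fibroblast markers was 10.26 on both WT arrays, 10.24 on the array labelled mut/mut 1, and 10.76 and 10.75 on replicates 2 and 3. Of these 27, 20 lay above both WT arrays on both of these replicates, against 26.7% of all genes. In the comparison without the array labelled mut/mut 1 and with dim genes removed, 7 of 26 rose and 0 fell (limma adjusted p below 0.05). The shares over all genes tested there were 3.29% higher and 1.34% lower. The collagen gene Col1a2 read between 12.47 and 13.16 on all arrays. Without the array labelled mut/mut 1, 25 of the 27 fibroblast markers read higher and 2 lower, from -0.15 to 1.28. Not all rose alike: Col1a1 differed by 0.12, against 0.61 for Col1a2. The part of feeder RNA in the differences below was not tested. Median differences without the array labelled mut/mut 1 were -0.08 for 8 trophoblast, 0.0076 for 8 primitive endoderm and -0.13 for 7 neuroectoderm markers. With dim genes removed too, the stem cell marker Utf1 fell by 0.80 (limma adjusted p = 0.0422), the trophoblast marker Krt7 fell by 0.78 (0.0482) and the neuroectoderm marker Zic1 rose by 1.23 (0.0420), and no other marker of these lists passed.

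No chromatin remodelling gene passed the test. Over all 5 arrays 0 of 44 passed (limma, Benjamini-Hochberg adjusted p below 0.05 over all genes), where the background was 0% of all genes; at an unadjusted p below 0.05 it was 1 of 44, Chd5, against 1.18% of all genes. The adjusted p of the 44 ran from 0.748 to 0.989. Without the array labelled mut/mut 1 again 0 of 44 passed, with a background of 0%, and 10 of 44 had an unadjusted p below 0.05, or 22.7% against 20.5% of all genes. With dim genes removed as well (at least 2 of the 4 arrays above 5.52, the median of all values), 42 genes could be tested. In that comparison 3.29% of 11626 genes were called higher and 1.34% lower, and 0 of the 42 were called in either direction. At an unadjusted p below 0.05 there were 11 of 42, or 26.2% against 28.8%. The smallest adjusted p there was 0.0530, for Arid5b.

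The differences were small and went both ways. The median difference of the 44 genes was -0.03 over all 5 arrays and -0.03 without the array labelled mut/mut 1, against 0.02 and 0.02 for all genes. The median size, regardless of sign, was 0.11 and 0.16, against 0.097 and 0.13. Without that array the differences ran from -0.69 (Arid2) to 0.67 (Ino80dos), and 0 genes reached 2-fold. Replicates 2 and 3 both lay below both WT arrays for 14 of 44 genes, or 31.8% against 17.5% of all genes, and above both for 12, or 27.3% against 26.7%. With the array labelled mut/mut 1 included, 3 of 44 lay wholly below WT against 6.29%, and 5 wholly above against 5.73%. These counts are descriptions. The 44 genes were brighter than the background, with a mean of 8.39 on WT replicate 1 against 6.83 for all genes. No background of like brightness was taken, here or for the groups below. Replicates 2 and 3 themselves disagreed in direction from the WT mean for 16 of the 44 genes, or 36.4% against 30.0% of all genes. For 26 of 44 replicate 2 was the farther from WT.

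**Figure D1:**
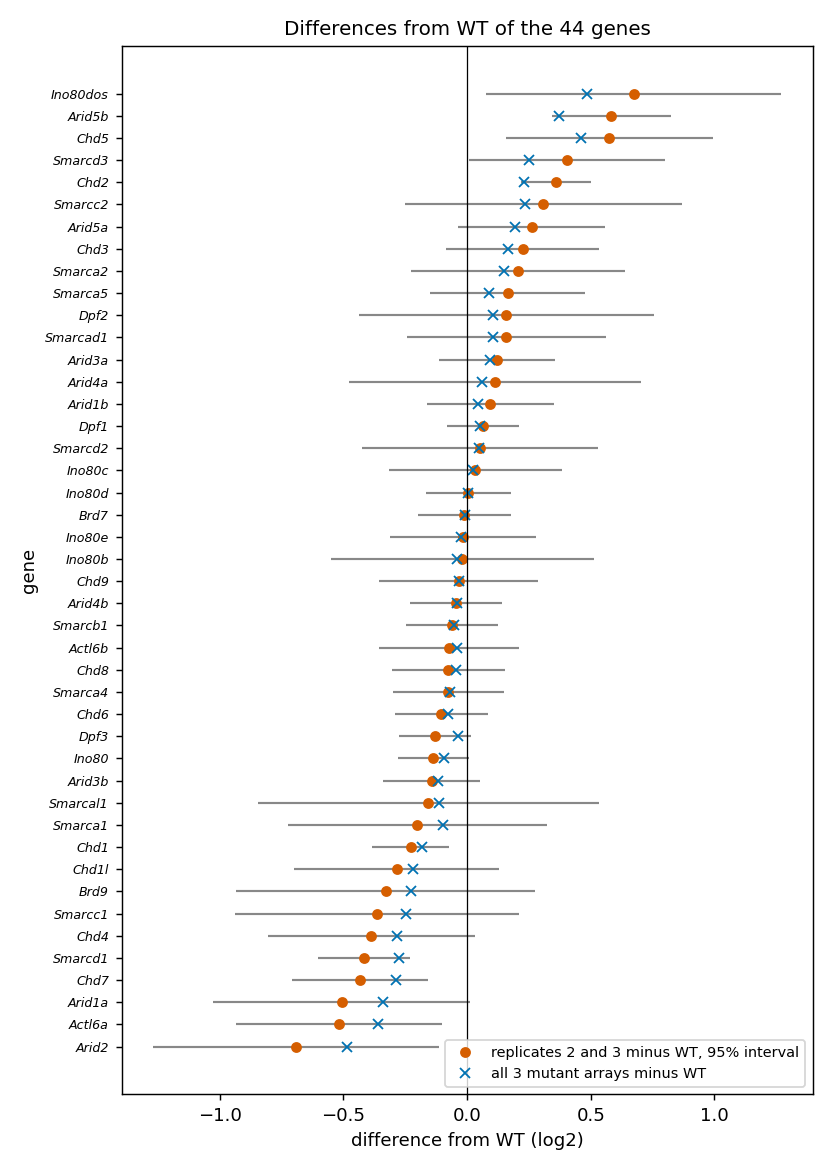
Difference from WT on the log2 scale for each of the 44 genes, in order. Circles show replicates 2 and 3 against WT with the 95% interval of the limma fit to 4 arrays, crosses the difference with all 3 mutant arrays. The order runs from Arid2 at -0.69 to Ino80dos at 0.67, and the crosses lie nearer 0 than the circles for the genes at both ends.

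Promoter windows from RefSeq (GRCm38.p6) were matched by symbol for 35 of the 44 genes. For a gene with several listed starts, the highest CpG count was taken, and a motif was counted if any start had it. Shares can thus rise with the number of listed starts, which was not compared between the gene groups. In the 250 bases before a listed start, 30 of the 35 held at least 10 CpG, or 85.7%. The share was 62.6% of all array genes with a window and 40.2% of all 27025 genes. The median was 21 CpG, against 14 over array genes. A GC box, written GGGCGG and searched on both strands, was found in 28 of 35, or 80.0% against 53.4% of array genes and 35.4% of all genes. The CCAAT box (CCAAT) was found in 14 of 35 (40.0% against 39.4% and 37.5%), the ETS core CGGAAG in 7 (20.0% against 22.3% and 15.3%), and TATAAA in 2 (5.71% against 10.5% and 14.3%). GCATGCGC, part of the NRF1 motif, was found in 3 (8.57% against 3.96% and 2.56%), and AAGATGGC, part of the YY1 motif, in 1 (2.86% against 2.05% and 1.83%). Matches to different motifs can share bases, as those to GGGCGG and CGGAAG can, and a match is a description only. The windows below belong to the genes with a single listed start among the 5 lowest and the 5 highest differences without the array labelled mut/mut 1: Actl6a and Smarcd1, which read lower on replicates 2 and 3, and Smarcd3 and Arid5b, which read higher. Capitals mark matches to the 6 motifs on either strand, and each window runs 5′ to 3′ on the gene's strand, up to the start.
Actl6a (chr3:32708296-32708545, plus strand): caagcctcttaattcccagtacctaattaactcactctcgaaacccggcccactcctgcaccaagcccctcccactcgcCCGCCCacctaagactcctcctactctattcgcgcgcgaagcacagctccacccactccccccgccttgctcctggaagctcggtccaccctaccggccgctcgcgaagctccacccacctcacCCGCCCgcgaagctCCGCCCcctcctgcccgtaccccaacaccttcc
Smarcd1 (chr15:99702037-99702286, plus strand): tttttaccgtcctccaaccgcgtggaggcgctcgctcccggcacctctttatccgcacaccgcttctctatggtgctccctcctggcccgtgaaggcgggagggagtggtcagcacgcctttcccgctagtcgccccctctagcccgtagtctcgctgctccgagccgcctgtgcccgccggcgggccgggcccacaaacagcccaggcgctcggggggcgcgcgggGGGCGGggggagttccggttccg
Smarcd3 (chr5:24602003-24602252, minus strand): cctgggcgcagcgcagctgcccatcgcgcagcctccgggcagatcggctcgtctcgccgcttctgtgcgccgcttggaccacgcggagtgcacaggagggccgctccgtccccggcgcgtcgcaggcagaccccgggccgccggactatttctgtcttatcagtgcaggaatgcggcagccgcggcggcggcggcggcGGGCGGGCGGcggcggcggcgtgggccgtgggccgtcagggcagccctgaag
Arid5b (chr10:68278727-68278976, minus strand): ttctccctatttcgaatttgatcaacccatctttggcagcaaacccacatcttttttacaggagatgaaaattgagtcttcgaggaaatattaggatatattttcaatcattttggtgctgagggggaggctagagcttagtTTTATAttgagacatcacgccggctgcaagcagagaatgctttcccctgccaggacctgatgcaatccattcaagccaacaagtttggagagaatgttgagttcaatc
The Smarcd1 and Smarcd3 windows, from paralogues that read in opposite directions, held 29 and 38 CpG, with 1 and 2 GC boxes. That of Actl6a held 19 CpG and 3 GC boxes. Among the windows printed, that of Arid5b stood apart in composition, with 4 CpG, 42.0% G and C and 0 GC boxes. Its match was to TATAAA on the opposite strand. Of the 35 genes, Smarcd2 also had 4 CpG and a match to TATAAA, though with a GC box and 56.4% G and C.

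Among the SWI/SNF genes, the ATPase of the stem cell complex was close to WT and the alternative ATPase read above WT on every mutant array, by little on all but replicate 3. Smarca4 read 10.66 and 10.68 on the WT arrays, 10.61 on the array labelled mut/mut 1, and 10.67 and 10.52 on replicates 2 and 3. The groups overlapped, and without the array labelled mut/mut 1 the difference was -0.08 with a 95% interval from -0.30 to 0.15, which leaves out a change of 2-fold. Its other probe set gave -0.07. Smarca2 read 6.70 and 6.72 in WT, 6.74 on the array labelled mut/mut 1, 6.74 on replicate 2 and 7.09 on replicate 3. All 3 mutant arrays were above WT, but only replicate 3 by more than 0.2, at 1.30-fold the WT mean. The difference was 0.15 over 5 arrays and 0.21 without the array labelled mut/mut 1 (SE 0.14, limma adjusted p = 0.526).

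In the shared core, paralogues read in different directions. Smarcc1 (BAF155), a scaffold of the stem cell complex, read 11.16 and 11.14 in WT, 11.14 on the array labelled mut/mut 1, 10.55 on replicate 2 and 11.02 on replicate 3. Replicate 2 alone stood out, at 0.661-fold of WT against 0.914-fold on replicate 3. Its paralogue Smarcc2 (BAF170), which is known to rise as stem cells differentiate, read 7.27 and 7.10 in WT, 7.27 on the array labelled mut/mut 1, 7.28 on replicate 2 and 7.71 on replicate 3, where it was at 1.43-fold of WT. Leaving out the array labelled mut/mut 1, the differences were -0.36 (SE 0.19) for Smarcc1 and 0.31 (SE 0.18) for Smarcc2, with limma adjusted p of 0.427 and 0.490. Over 5 arrays they were -0.25 and 0.23. The probe sets of Smarcc1 disagreed on replicate 2: beside the -0.60 of the one used, another bright one was 0.18 above WT and a dimmer one 0.76 below.

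The Smarcd genes encode 3 alternative forms of the BAF60 subunit. Smarcd1 (BAF60A) read 7.01 and 6.95 in WT, 6.99 on the array labelled mut/mut 1, and 6.61 and 6.51 on replicates 2 and 3. Both of the latter lay below WT, at 0.775-fold and 0.724-fold. The difference was -0.28 over 5 arrays (limma adjusted p = 0.748). Leaving out the array labelled mut/mut 1, it was -0.42 (SE 0.06, adjusted p = 0.0926 over all genes and 0.0622 with dim genes removed). Smarcd3 (BAF60C), known from heart and muscle, read 6.12 and 6.25 in WT, 6.13 on the array labelled mut/mut 1, and 6.45 and 6.73 on replicates 2 and 3. Both of the latter were above WT, by different amounts, and the difference was 0.25 over 5 arrays and without the array labelled mut/mut 1 0.40 (SE 0.13, limma adjusted p = 0.236). Smarcd2 (BAF60B) read 10.07 and 10.04 in WT, 10.09 on the array labelled mut/mut 1, 10.30 on replicate 2 and 9.92 on replicate 3. Its replicates 2 and 3 lay on opposite sides of WT, and the difference was 0.05 both with and without the array labelled mut/mut 1.

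Of the remaining core genes, the actin-related Actl6a (BAF53A), which is also a subunit of INO80 and TIP60 complexes, read lowest relative to WT. It read 11.04 and 10.88 in WT, 10.92 on the array labelled mut/mut 1, 10.30 on replicate 2 and 10.59 on replicate 3. Both of the latter were below both WT arrays, with a mean difference of -0.52 (SE 0.14, limma adjusted p = 0.184 without the array labelled mut/mut 1). It was -0.36 over 5 arrays. The probe set used is of a type whose probes can match other transcripts; the second brightest gave -0.51, and another bright one 0.02. Smarcb1 (SNF5), a tumour suppressor, read 9.30 and 9.37 in WT, 9.30 on the array labelled mut/mut 1, and 9.32 and 9.23 on replicates 2 and 3, so that the groups overlapped. Its difference was -0.05 over 5 arrays and -0.06 without the array labelled mut/mut 1. Actl6b (BAF53B), the neuronal form, was dim, at 3.52 and 3.33 in WT, 3.46 on the array labelled mut/mut 1, and 3.41 and 3.30 on replicates 2 and 3.

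**Figure D2:**
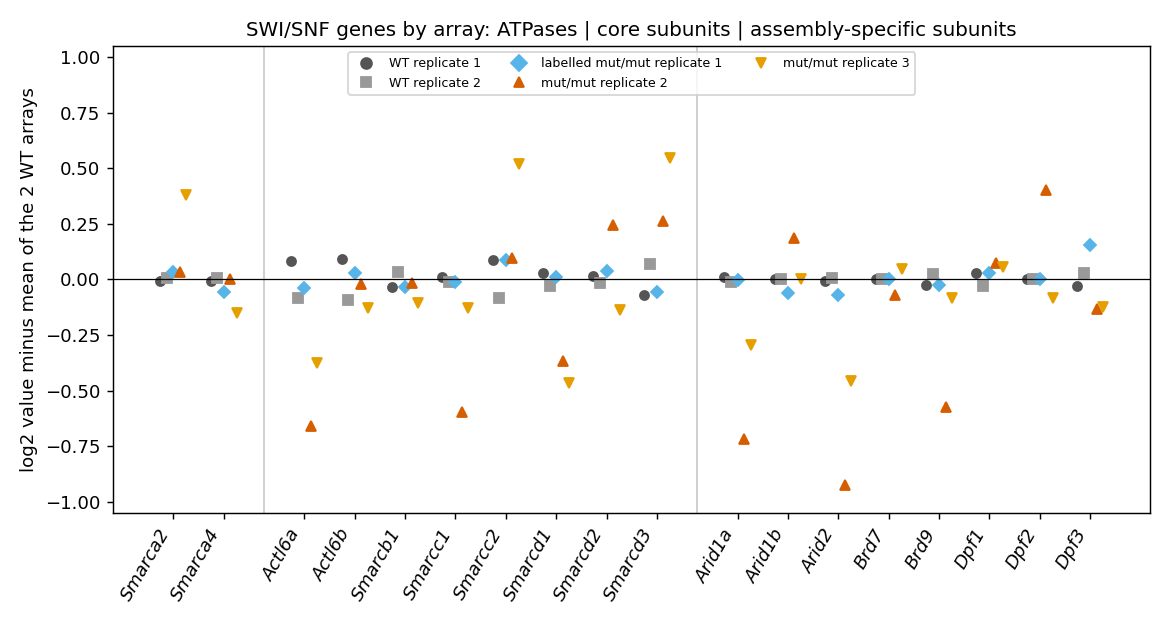
Log2 value minus the mean of the WT arrays for the 18 SWI/SNF genes, with 1 point per array and gene, and vertical lines between ATPases, shared core and assembly-specific subunits. The array labelled mut/mut replicate 1 lies with WT, replicate 2 is lowest for Arid2, Arid1a, Actl6a, Smarcc1 and Brd9, and replicate 3 is highest for Smarcd3, Smarcc2 and Smarca2.

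The ARID subunits of PBAF and BAF, Arid2 and Arid1a, read below WT on replicates 2 and 3, and neither passed the test. Arid2 (BAF200), the ARID subunit of PBAF, read 10.990 and 11.004 in WT, 10.93 on the array labelled mut/mut 1, 10.07 on replicate 2 and 10.54 on replicate 3. All 3 mutant arrays were below WT, replicate 2 by far the most at 0.526-fold, against 0.729-fold on replicate 3. The difference was -0.48 (SE 0.27) over 5 arrays. Without the array labelled mut/mut 1 it was -0.69 (SE 0.19, limma adjusted p = 0.194 over all genes and 0.104 with dim genes removed). Its other probe sets above the median gave -0.32 and -0.70.

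Arid1a (BAF250A), the ARID subunit of the stem cell BAF complex, read 11.55 and 11.53 in WT, 11.54 on the array labelled mut/mut 1, 10.82 on replicate 2 and 11.24 on replicate 3. Replicates 2 and 3 were below WT, at 0.609-fold and 0.814-fold, and the array labelled mut/mut 1 was not. The difference was -0.34 over 5 arrays. Without that array it was -0.51 (SE 0.17, limma adjusted p = 0.252), and a second probe set gave -0.45. The paralogue Arid1b (BAF250B) read 8.38 and 8.38 in WT, 8.32 on the array labelled mut/mut 1, 8.56 on replicate 2 and 8.38 on replicate 3. Only replicate 2 was above WT. The difference was 0.04 over 5 arrays, and the 95% interval of the difference without the array labelled mut/mut 1 ran from -0.16 to 0.35.

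Of the bromodomain subunits of PBAF and ncBAF, the 44 genes held Brd7 and Brd9. Pbrm1, a bromodomain subunit of PBAF outside the 44, read 10.65 and 10.63 in WT and 10.71 on the array labelled mut/mut 1. On replicates 2 and 3 it read 10.03 and 10.41, below both WT arrays. Its difference was -0.25 over 5 arrays and -0.42 without the array labelled mut/mut 1 (SE 0.16, limma adjusted p = 0.290). Brd7, of PBAF, read 9.27 on both WT arrays and on the array labelled mut/mut 1, 9.20 on replicate 2 and 9.32 on replicate 3. Replicate 2 was below WT and replicate 3 above it, and the difference was -0.0078 over 5 arrays and -0.01 without the array labelled mut/mut 1. Brd9, of ncBAF, read 8.42 and 8.47 in WT, 8.42 on the array labelled mut/mut 1, 7.87 on replicate 2 and 8.36 on replicate 3. Replicate 2 was at 0.672-fold of WT and replicate 3 at 0.943-fold, and the difference was -0.23 over 5 arrays and without the array labelled mut/mut 1 -0.33 (SE 0.20, limma adjusted p = 0.492).

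The Dpf genes encode PHD-finger subunits of BAF that read modified histone H3 tails. Dpf2 (BAF45D), the widely expressed form, read 10.11 on both WT arrays and the array labelled mut/mut 1, 10.51 on replicate 2 and 10.03 on replicate 3. It was above WT on replicate 2 and below it on replicate 3, with a difference of 0.11 over 5 arrays and 0.16 without the array labelled mut/mut 1. A second Dpf2 probe set above the median lay below both WT arrays on both replicates, with a difference of -0.22 without that array. Dpf1, a neuronal form, read 6.93 and 6.86 in WT, 6.93 on the array labelled mut/mut 1, and 6.97 and 6.95 on replicates 2 and 3. Dpf3, known from heart and muscle, read 6.95 and 7.01 in WT, 7.14 on the array labelled mut/mut 1, and 6.85 and 6.86 on replicates 2 and 3. The Dpf3 mutant arrays thus lay on both sides of WT, with a difference of -0.04 over 5 arrays and -0.13 without the array labelled mut/mut 1. The Dpf1 difference of 0.07 without the array labelled mut/mut 1 had a 95% interval from -0.08 to 0.21.

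As a group, 7 of the 18 SWI/SNF genes lay below both WT arrays on replicates 2 and 3, and 4 lay above, where the shares over all genes were 17.5% below and 26.7% above. The 7 were Actl6a, Smarcc1, Smarcd1, Arid1a, Arid2, Brd9 and Dpf3, and the 4 were Smarca2, Smarcc2, Smarcd3 and Dpf1. The median difference of the 18 was -0.04 over 5 arrays and -0.07 without the array labelled mut/mut 1. These differences stood beside the higher fibroblast markers on the same arrays. In such bulk RNA, fewer cells of a type and less RNA per cell cannot be told apart.

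The CHD family, ATPases named for their chromodomains, held genes that read higher and genes that read lower on replicates 2 and 3. Chd5, a NuRD ATPase known from neurons and testis, read 5.89 and 5.62 in WT, 5.99 on the array labelled mut/mut 1, 6.43 on replicate 2 and 6.23 on replicate 3. All 3 mutant arrays were above both WT arrays, including the array labelled mut/mut 1, and the gene lay near the median of all values. The difference was 0.46 over 5 arrays (SE 0.16, limma unadjusted p = 0.0438, adjusted p = 0.748). Without the array labelled mut/mut 1 it was 0.58 (SE 0.14, adjusted p = 0.159, and 0.0889 with dim genes removed).

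Chd2, whose product remodels chromatin at transcribed genes, read higher by nearly the same amount on replicates 2 and 3. It read 8.86 and 8.91 in WT, 8.86 on the array labelled mut/mut 1, and 9.25 and 9.24 on replicates 2 and 3. The latter lay at 1.29-fold and 1.28-fold of the WT mean. The difference was 0.23 over 5 arrays. Leaving out the array labelled mut/mut 1, it was 0.36 with a 95% interval from 0.22 to 0.50 (limma adjusted p = 0.0848 over all genes, and 0.0648 with dim genes removed). A second probe set was also higher, by 0.21.

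Chd7, which binds enhancers and is mutated in CHARGE syndrome, went the other way. It read 8.33 and 8.45 in WT, 8.39 on the array labelled mut/mut 1, and 8.04 and 7.87 on replicates 2 and 3. Replicates 2 and 3 were below WT, at 0.787-fold and 0.699-fold. The difference was -0.29 over 5 arrays, and both probe sets gave -0.43 without the array labelled mut/mut 1 (SE 0.09 for the one used, limma adjusted p = 0.136, and 0.0847 with dim genes removed). Chd4, the main NuRD ATPase of stem cells, read 9.83 and 9.97 in WT, 9.83 on the array labelled mut/mut 1, 9.36 on replicate 2 and 9.66 on replicate 3. Replicate 2 was the lower of the pair. The difference was -0.28 over 5 arrays, and the 3 probe sets gave -0.39, -0.28 and -0.02 without the array labelled mut/mut 1.

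Chd1, an enzyme known to keep stem cell chromatin open, differed by -0.23 without the array labelled mut/mut 1 (SE 0.05, limma adjusted p = 0.149) on the probe set used. On it every mutant array was below WT, at 0.942-fold, 0.857-fold and 0.850-fold, with a difference of -0.18 over 5 arrays. The other 3 probe sets of Chd1 gave -0.01, -0.68 and -0.35. Chd1l, an ATPase recruited by poly(ADP-ribose) at DNA damage, was also below WT on all 3 mutant arrays, at 0.942-fold, 0.733-fold and 0.920-fold. Chd3, a further NuRD ATPase, was above WT on each, at 1.04-fold, 1.09-fold and 1.26-fold. For Chd6, Chd8 and Chd9 the differences without the array labelled mut/mut 1 were -0.10, -0.08 and -0.03. Of the 10 CHD genes 5 lay below both WT arrays on replicates 2 and 3, against 17.5% of all genes, and 3 above, against 26.7%. The median difference was -0.06 over 5 arrays and -0.09 without the array labelled mut/mut 1. A second probe set of Chd8 gave -0.43 and a dimmer one above the median 0.07, where the brightest gave -0.08. The choice of probe set thus sets both size and direction there. For Chd9, other probe sets above the median gave 0.19 and 0.22, opposite in sign to the -0.03 of the brightest.

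**Figure D3:**
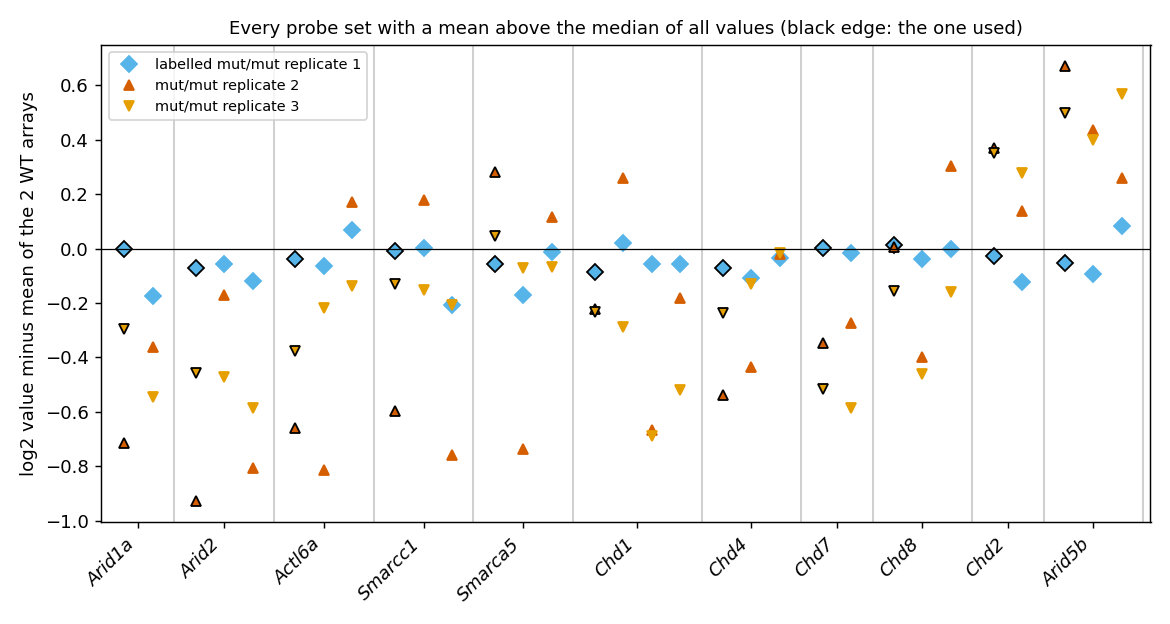
Log2 value minus the mean of the WT arrays for every probe set with a mean above the median of all values, for 11 genes with several, with 1 column per probe set and a black edge on the one used. The probe sets of Arid2, Arid1a, Chd7, Chd2 and Arid5b lie on the same side on replicates 2 and 3. Those of Smarca5, Smarcc1, Actl6a, Chd1 and Chd8 spread across 0 on replicate 2.

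Across the family, 34 further probe sets had a mean above the median, and 23 of them had the same sign as the probe set used. Where the one used differed by at least 0.2 without the array labelled mut/mut 1, 14 of 16 did. RMA values of several genes were tied: 5 of the 44 had exactly the same value on both WT arrays, or 11.4% against 19.1% of all genes. Their WT spread of 0 is not a measure of precision.

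The ISWI ATPases and the other enzymes named for SMARCA were close to WT on most arrays. Smarca5 (SNF2H), the ISWI ATPase of stem cells that spaces nucleosomes, was at 0.962-fold on the array labelled mut/mut 1, 1.22-fold on replicate 2 and 1.03-fold on replicate 3. Another of its bright probe sets was 0.74 below WT on replicate 2, so the probe sets disagreed in direction on that array. Smarca1 (SNF2L), the ISWI paralogue of neural tissue, was at 1.08-fold, 1.01-fold and 0.751-fold, with replicate 3 alone apart. Smarcad1, which acts at heterochromatin after replication, was at 1.00-fold, 1.25-fold and 1.00-fold. Smarcal1, an annealing helicase of stalled forks, was at 0.977-fold, 0.739-fold and 1.09-fold. For these 4 genes the differences without the array labelled mut/mut 1 lay between -0.20 and 0.16.

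On their brightest probe sets the INO80 subunits differed little from WT. Ino80, the ATPase, was at 0.991-fold, 0.892-fold and 0.927-fold of WT on the 3 mutant arrays, and the differences of Ino80b, Ino80c, Ino80d and Ino80e without the array labelled mut/mut 1 lay between -0.02 and 0.03. The median size of the 5 differences was 0.02, against 0.13 over all genes. Other probe sets above the median differed by more: -0.20 and -0.18 for Ino80e, -0.23 for Ino80 and 0.27 for Ino80d. Ino80dos, a transcript annotated opposite to Ino80d and no subunit, was dim. It read 3.44 and 3.65 in WT, 3.65 on the array labelled mut/mut 1, and 4.002 and 4.437 on replicates 2 and 3. Both of the latter were above WT. The difference was 0.48 over 5 arrays and without the array labelled mut/mut 1 0.67 (SE 0.20, limma adjusted p = 0.208), at a signal where RMA gives no detection call.

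The ARID proteins outside SWI/SNF are DNA-binding factors that share the ARID domain with Arid1a and Arid2. Arid5b, a partner of a histone demethylase with roles in adipose and mesenchymal cells, had the smallest adjusted p of the 42 genes tested with dim genes removed. It read 10.54 and 10.53 in WT, 10.48 on the array labelled mut/mut 1, 11.20 on replicate 2 and 11.03 on replicate 3. The last pair was well above WT, at 1.59-fold and 1.41-fold, while the array labelled mut/mut 1 was at 0.965-fold. The difference was 0.37 over 5 arrays (SE 0.24, limma adjusted p = 0.748). Without the array labelled mut/mut 1 it was 0.58 with a 95% interval from 0.34 to 0.83 (adjusted p = 0.0882 over all genes and 0.0530 with dim genes removed). The other probe sets above the median gave 0.42 and 0.41. The fibroblast markers had a median difference of 0.53 on the same arrays, and the part of feeder RNA in the Arid5b signal was not tested.

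Arid5a, an RNA-binding member of the family, was above WT on all 3 mutant arrays, at 1.04-fold, 1.30-fold and 1.11-fold. Arid3a (Bright), a factor of B cells and trophoblast, was above WT on all 3 as well, at 1.03-fold, 1.15-fold and 1.03-fold. Arid3b was below both WT arrays on replicates 2 and 3, at 0.899-fold and 0.912-fold of the WT mean. Arid4a and Arid4b, subunits of SIN3 complexes, differed by 0.11 and -0.04 without the array labelled mut/mut 1, with 95% intervals that held 0. Without that array 4 of the 6 ARID genes of this kind were higher and 2 lower, with 0 past the test.

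**Figure D4:**
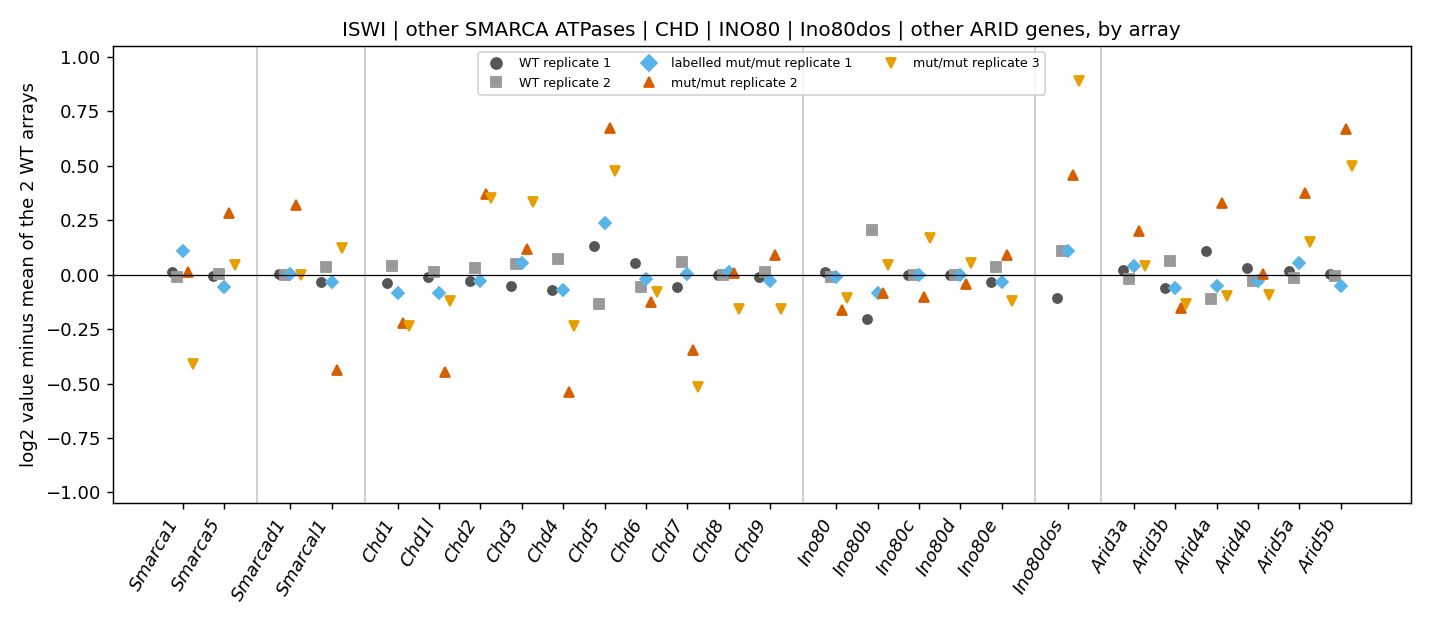
Log2 value minus the mean of the WT arrays for the 26 genes outside SWI/SNF, with 1 point per array and gene, and vertical lines between ISWI, other SMARCA, CHD, INO80, Ino80dos and other ARID genes. Chd2, Chd5 and Arid5b lie above WT and Chd7 and Chd4 below on both replicates 2 and 3, and the INO80 subunits, on the probe sets used, lie close to 0.

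Further subunits and partners of the same complexes were read from lists set beside these genes, each against the background of 3.29% higher and 1.34% lower in the comparison without the array labelled mut/mut 1 and with dim genes removed. Over all 5 arrays 0 of their members passed. Of 11 further SWI/SNF subunits 1 rose there and 0 fell: Bicral, the GLTSCR1-like subunit of ncBAF, by 0.69 (limma adjusted p = 0.0487). Phf10 of PBAF differed by -0.30 and the ncBAF subunit Bicra by 0.16, and neither passed. Of the 11, 5 read higher and 6 lower without the array labelled mut/mut 1. The largest difference was that of Bcl7c, at -0.82 (limma adjusted p = 0.138 with dim genes removed). Bcl7c read 8.54 and 8.58 in WT, 7.40 on replicate 2 and 8.09 on replicate 3. Of 10 NuRD partners 1 rose and 0 fell: Mbd2, which binds methylated DNA, by 0.77 (adjusted p = 0.0426). Mbd3, the alternative to Mbd2 in NuRD, differed by -0.20 and Mta1 by -0.32, and neither passed. Mbd2 and Bicral were thus the called members of these lists, and neither was called over 5 arrays, where their adjusted p was 0.748.

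Of 11 ISWI partners 0 passed in either direction. Baz2b, a bromodomain partner, differed by 0.41 (adjusted p = 0.0553), Bptf of NURF by -0.46 and the histone chaperone Rbbp7 by -0.25. Of 18 INO80, SRCAP and TIP60 subunits 0 passed; the paired AAA+ ATPases Ruvbl1 and Ruvbl2 differed by -0.39 and -0.37. Of 11 other Snf2-type ATPases 0 of the 10 tested there passed. Their median was -0.26 without the array labelled mut/mut 1, against -0.03 for the 44 genes and 0.02 for all genes, and 7 of 11 lay below both WT arrays on replicates 2 and 3, against 17.5% of all genes. Ercc6l (PICH), a translocase of mitotic chromosomes, differed by -0.54, and the recombination factor Rad54b by -0.53. Medians of the other lists were -0.04, -0.0014, -0.14 and -0.03 for SWI/SNF, ISWI, NuRD and INO80 partners.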

How the data were processed

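Values were deposited on the log2 scale, with 1 value per probe set and array, and were made with RMA per the submitters' processing notes, which name no version. RMA as usually run corrects background, brings arrays to a common distribution and reports 1 summary per probe set, so a change shared by all transcripts would be removed. Of 45101 probe sets, 64 controls were left out. The platform annotation gave 34945 probe sets 1 symbol, 932 several and 9160 none; only the first were used, updated by gene number through the GRCm38.p6 table. Genes were fitted with limma 3.58.1 in R 4.3.3 (lmFit, eBayes, two-sided), with Benjamini-Hochberg adjustment over all genes and a threshold of 0.05. Intervals are the fit's 95% intervals. The number of arrays limits the precision. The labels call the arrays biological replicates; p-values measure only the spread between these arrays, which may be technical.

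The 44 genes, the lists and the leaving out of the array labelled mut/mut 1 were chosen with earlier results of these data known. Values on every array were given for the SWI/SNF genes and elsewhere for the 6 highest and the 6 lowest differences, and other genes were named to complete each family. In the lists, up to 3 members with the smallest p-value over 5 arrays were eligible to be named, besides called members. Pbrm1 was named in addition, next to Brd7, as were Col1a1, next to Col1a2, and Bcl7c, the lowest of its list. Whether equal replicate numbers pair the arrays is not known, and the main fit treated them as unpaired. Same-numbered deviations from the group means had correlations of -0.05 and -0.08. With 2 WT arrays the WT deviations mirror each other, so these values cannot decide it. The fit was tested on simulated data. Alternatives were quantile normalisation, equal medians, a filter on dim genes, a variance trend, each array left out, weights per array, a replicate block and other rules for the probe set of a gene. Plots used matplotlib 3.10.9 (Python 3.11.15).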

Additional observations from a re-analysis of the deposited data

How the results depend on the processing

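The count of called genes stayed at 0 of 44 under all 14 alternatives, or 0 of 42 where dim genes were removed. Unadjusted counts and the other comparisons are given above. The smallest adjusted p of a member (limma) ran from 0.0530, without the array labelled mut/mut 1 and with dim genes removed, to 0.987 without WT replicate 2. The median difference of the 44 genes was 0.0069 with the replicate block, which here equals the fit without mutant replicate 3, and ran from -0.0492 to 0.0069 over fits that left out 1 array; other settings gave -0.06 to -0.03. Over the 24 genes whose values were given on every array, 319 values kept their direction and their side of the threshold and 13 turned (the other genes' values were not compared one by one), each from a difference between -0.04 and 0.11 over 5 arrays; the cause was not tested. With array weights Brd7 was at 0.0112 and Smarcd2 at -0.0157. With the replicate block Actl6b was at 0.0043 and Dpf3 at 0.0094, and the same values were found without mutant replicate 3. Over fits that left out 1 array, Actl6b ran from -0.131 to 0.0520, Arid1b from -0.0297 to 0.0937, Brd7 from -0.0355 to 0.0236, Dpf2 from -0.0416 to 0.201, Dpf3 from -0.130 to 0.0137 and Smarcd2 from -0.0512 to 0.140; in all but Actl6b, mutant replicate 2 was the array left out where the sign turned. Dpf3 also turned without mutant replicate 3. With probe sets averaged per gene Dpf2 was at -0.0442. Fits that leave 1 WT array assume that it varies like the mutant arrays. The block changed no call. Dim genes, Actl6b and Ino80dos among these 44, are read near background, where RMA compresses differences.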
